A study of Mus musculus with 6 samples.

Results

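The Notch genes described here are 10 genes of the Notch pathway, chosen by name as the rows for Notch1, Notch2, Notch3, Dll1, Dll3, Dll4, Jag1, Jag2, Hes1 and Hes5 among 56805 genes in the deposited count table. All 10 were in the table and all 10 passed the filter on low counts that left 21972 genes for testing. The study measured RNA of mouse motor neurons of e12.5 embryos from the cervical spinal cord and from the thoracic spinal cord, with 3 libraries per region. Both groups carry the genotype given as control in the labels and received no treatment, so region is the difference between them. The sources used here do not give the isolation of the cells, the number of embryos behind each library or the alleles of the control genotype. The labels do not say whether the biological replicates of a region are embryos, litters or pools, so the p-values speak to the spread of these libraries only, which may be technical.

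Notch receptors are cell surface proteins that are cut when a Delta or Jagged ligand on a neighbouring cell pulls on them. The freed intracellular part enters the nucleus, joins the DNA-binding protein Rbpj and a Mastermind protein, and switches on Hes and Hey genes, whose proteins repress neuron-promoting factors. In the embryonic spinal cord this signalling keeps progenitor cells from becoming neurons, while cells that begin to differentiate show Delta ligands to their neighbours. Differentiated motor neurons are postmitotic, so Notch receptors and Hes genes are textbook genes of progenitors more than of the neurons themselves.

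Library totals were 32103071 to 33790634 counts in 5 libraries and 53186131 in thoracic replicate 1. A member's depth ran from 30 reads for Dll4 in cervical replicate 1 to 10433 for Notch1 in thoracic replicate 1. All 9 motor neuron genes on the list used to check the label were tested, led by Mnx1 with 134 to 227 CPM (read counts scaled by the library total after TMM normalisation) over the 6 libraries, and none was at 0. Genes of neural progenitors were detected too. The 10 on the progenitor list summed to 931, 1253 and 994 CPM in cervical replicates 1, 2 and 3 and to 1120.5, 1474 and 1225 CPM in the thoracic ones, against 724, 358 and 501 CPM and 669, 448 and 617 CPM for the motor neuron list. Isl1, a defining motor neuron factor, and Slc18a3, the vesicular acetylcholine transporter, rose in thoracic libraries with the replicate block described below (edgeR adjusted p = 0.00105 and 0.0303). These were 2 of the 9, where 1.39% of all tested genes were called higher in thoracic libraries in that fit. With region only Isl1 and Slc18a3 were not called (edgeR adjusted p = 0.181 and 0.740), and both overlapped between regions. The other 7 were not called in either fit, among them Mnx1 at 0.16 and Prph at 0.32 in log2 units, cervical minus thoracic. Of the 9, 6 lay below 0 and 3 above, with a median log2 fold change of -0.33. Fewer cells of a type and less RNA per cell cannot be told apart in such bulk samples.

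In the comparison of regions, every member had a lower fitted level in cervical than in thoracic libraries, but none passed the test across all genes with region as the only term. Genes with a p below 0.05 in edgeR's quasi-likelihood test, after Benjamini-Hochberg adjustment over all tested genes, are named called. By that rule 0 of 10 members were called, where 119 of 21972 genes (0.542%) were, 0.191% with the higher level in cervical and 0.350% with it in thoracic libraries, and DESeq2 and limma-voom also called 0 members. Without the filter on low counts the same edgeR test called 3 members, Notch1 (adjusted p = 0.0313), Notch2 (3.8e-05) and Notch3 (0.0148). The count over all genes was then 747 of 39190 tested. The Notch2 log2 fold change was -0.39 with and without the filter, while its SE went from 0.16 to 0.076. Over all genes 408 of 21972 were called with DESeq2, 107 of 21972 with limma-voom, and 9 of 22730 without cervical replicate 3. At an unadjusted p below 0.05 there were 3 members, Notch2, Jag1 and Hes1, all lower in cervical libraries, where 8.47% of all genes passed in either direction and 5.19% with the higher level in thoracic libraries. The members' log2 fold changes, cervical minus thoracic, ran from -0.39 to -0.06 with a median of -0.22, beside a median of 0.01 over all tested genes, of which 47.9% lay below 0. In 6 members each thoracic library exceeded the cervical library of its replicate number, a pattern that 16.4% of all genes had, and 15.0% had the opposite one. Members share cells and libraries and are not replicates of the comparison.

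The replicate numbers 1 to 3 occur in both regions and the number was also fitted as a block, since libraries of the same number deviated together. With that replicate block the 3 Notch receptors rose in thoracic libraries, while no ligand and neither Hes gene was called. Over all genes 432 (1.97%) were called in that fit, 306 of them (1.39%) higher in thoracic libraries and 126 (0.573%) higher in cervical ones. When each library in turn was left out of the blocked fit, which takes its partner out of the contrast too, Notch1 was called in 2 of 6 fits, Notch2 in 2 and Notch3 in 0. Over all genes 798, 253 and 320 were called without cervical replicates 1, 2 and 3. Without thoracic replicates 1, 2 and 3 the counts were 789, 229 and 323. Notch1 was called in the fits with 798 and 789 called genes, and Notch2 in those with 253 and 229.

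**Figure D1:**
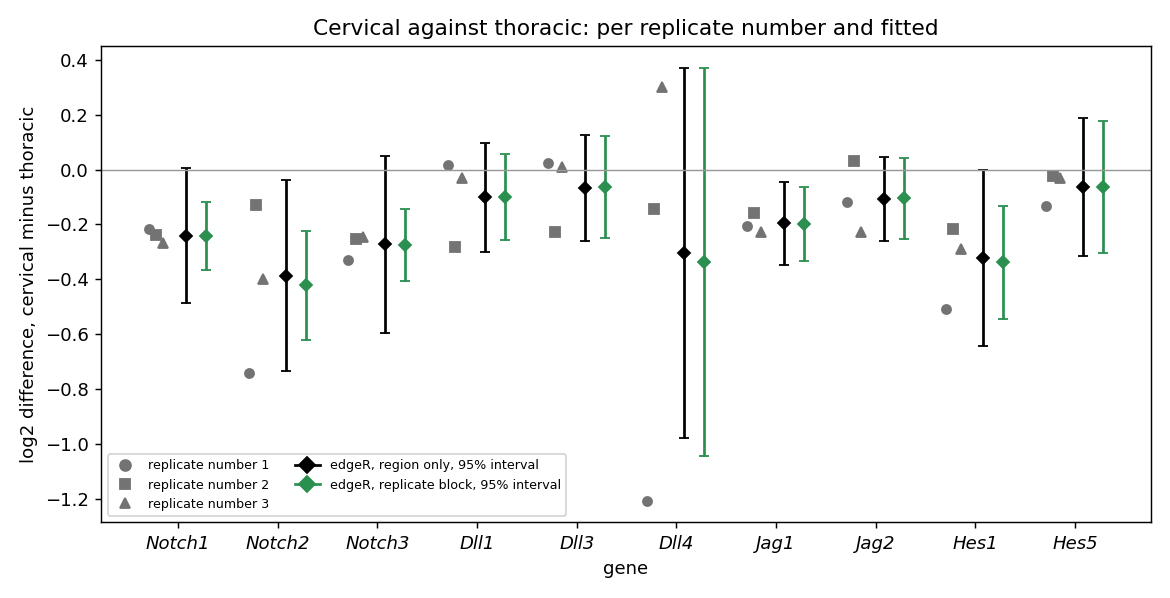
Log2 differences between cervical and thoracic libraries (y axis, negative values are higher in thoracic) for the 10 genes (x axis). Grey symbols are the differences for each replicate number, black diamonds the fit with region only and green diamonds the fit with the replicate block, with 95% intervals. The 3 grey symbols of Notch1 lie close together between -0.27 and -0.22, those of Notch2 between -0.74 and -0.13.

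Notch1 is the receptor most used in neural progenitors, and lies on mouse chromosome 2 from 26347915 to 26406675 (mm39, minus strand). It stood at 167, 202 and 153 CPM in cervical replicates 1, 2 and 3 and at 195, 238 and 185 CPM in thoracic replicates 1, 2 and 3. Replicate 2 was the highest library of its region and replicate 3 the lowest, so the regions overlapped although each thoracic library exceeded the cervical library of its number. The log2 differences by number were -0.22, -0.24 and -0.27. The fitted log2 fold change was -0.24 (SE 0.11, edgeR adjusted p = 0.606) with region only and -0.24 (SE 0.06, edgeR adjusted p = 0.0484) with the block, a thoracic level 1.18-fold above the cervical one. With region only the value rested on replicate 2: it was -0.12 without the thoracic and -0.36 without the cervical library of that number, and -0.16 without cervical replicate 3. Notch1 was called with the block when cervical replicate 1 or thoracic replicate 1 was left out (edgeR adjusted p = 0.0422 and 0.0346), and not without the others (0.176 to 0.259).

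Notch2, a receptor found in progenitors and in many tissues outside the nervous system, lies on chromosome 3 from 97920843 to 98057677 (mm39, plus strand). Its cervical levels were 66.2, 117 and 89.2 CPM and its thoracic levels 111, 128 and 118 CPM. Cervical replicate 1 was by far the lowest library, and only cervical replicate 2 reached into the thoracic range. The means were 90.8 ± 25.4 and 118.8 ± 8.70 CPM (SD, n = 3 each). The log2 fold change was -0.39 (SE 0.16, edgeR adjusted p = 0.512), and -0.42 (SE 0.09, edgeR adjusted p = 0.0332) with the block. The size rested on replicate 1, whose difference was -0.74 against -0.13 and -0.40 for numbers 2 and 3. With region only it was -0.20 without cervical replicate 1 and -0.61 without cervical replicate 2. Without cervical replicate 1 the blocked log2 fold change was -0.26 (edgeR adjusted p = 0.0593) and without thoracic replicate 1 it was -0.27 (0.0522). Notch2 was also not called with the block without cervical replicate 3 (0.0917) or thoracic replicate 3 (0.0850).

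Notch3 is best known from the smooth muscle cells and pericytes around blood vessels and is also made by neural progenitors. It lies on chromosome 17 from 32339794 to 32385826 (mm39, minus strand). The cervical replicates had 90.6, 124 and 87.1 CPM and the thoracic ones 114, 147 and 103 CPM. As for Notch1, replicate 2 was highest and replicate 3 lowest in each region, and the regions overlapped. The differences by number were -0.33, -0.25 and -0.25. The log2 fold change was -0.27 (SE 0.15, edgeR adjusted p = 0.700) and -0.28 (SE 0.06, edgeR adjusted p = 0.0340) with the block, a 1.21-fold higher thoracic level. With region only it was -0.11 without thoracic replicate 2, -0.45 without cervical replicate 2 and -0.18 without cervical replicate 3. The call with the block was lost in each of the 6 blocked fits that left out a library (edgeR adjusted p of 0.0773 to 0.181), while the blocked log2 fold change stayed at -0.29 to -0.25. The ratio of Notch3 to Notch1 CPM was 0.541, 0.613 and 0.569 in the cervical replicates and 0.584, 0.619 and 0.559 in the thoracic ones.

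The RefSeq promoter table (build GRCm38.p6) matched 9 of the 10 members, all but Hes1. The 250 bases before the start of the 3 receptor genes are shown because these genes were called together in the blocked fit. Capitals mark CACNAG, the N box that Hes repressors are known to bind, on either strand. Coordinates are of GRCm38.p6 and are not those of the count table's build.
Notch1, chr2:26503823-26504072, minus strand: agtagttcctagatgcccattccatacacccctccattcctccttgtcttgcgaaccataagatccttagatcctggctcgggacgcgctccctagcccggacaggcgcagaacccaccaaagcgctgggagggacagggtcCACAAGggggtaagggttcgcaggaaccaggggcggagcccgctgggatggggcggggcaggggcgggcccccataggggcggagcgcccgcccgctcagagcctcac
Notch2, chr3:98013288-98013537, plus strand: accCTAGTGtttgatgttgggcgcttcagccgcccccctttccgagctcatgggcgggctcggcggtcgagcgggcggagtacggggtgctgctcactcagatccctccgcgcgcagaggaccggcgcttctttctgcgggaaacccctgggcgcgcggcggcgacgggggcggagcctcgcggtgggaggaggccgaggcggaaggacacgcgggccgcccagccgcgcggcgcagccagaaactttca
Notch3, chr17:32166891-32167140, minus strand: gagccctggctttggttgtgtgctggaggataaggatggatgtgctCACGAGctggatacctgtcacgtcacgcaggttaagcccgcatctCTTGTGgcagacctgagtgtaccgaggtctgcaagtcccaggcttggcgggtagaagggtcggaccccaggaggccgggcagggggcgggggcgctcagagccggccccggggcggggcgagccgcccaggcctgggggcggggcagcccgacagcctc
The Notch1 window held 1 match, Notch2 1 and Notch3 2, where 36.67% of 32851 promoter windows of this length held at least 1 and 8.18% at least 2. None of the 3 held TGGGAA on either strand, the shorter core of the Rbpj site, which 21.59% of windows held. These are matches of letters and not sites shown to be bound.

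Summed over the 3 receptors, cervical replicates 1, 2 and 3 held 324, 443 and 330 CPM and thoracic ones 419, 514 and 406 CPM. Replicate 2 was the highest of each region, and it was also the highest for the progenitor list given above. Vim and Nes, intermediate filament genes of progenitors, were the genes of that list without overlap between the regions. Vim measured 291, 348 and 283 CPM in the cervical and 378, 489 and 419 CPM in the thoracic replicates. Its fold change was -0.48 in log2 units (SE 0.10), with an edgeR adjusted p of 0.0859, and of 0.00073 with the block. For Nes it was -0.45 (SE 0.11), with an edgeR adjusted p of 0.126, and of 0.000903 with the block. These were the 2 of 10 progenitor genes called with the block, where 1.39% of all genes were called higher in thoracic libraries. They were also the 2 at an unadjusted p below 0.05 in edgeR's test with region only, which called 0. At that threshold 5.19% of all genes passed with the higher level in thoracic libraries. The median log2 fold change of the 10 was -0.05, with 2 above and 8 below 0. Pax6 had the higher level in the cervical library of each replicate number, at 0.28 in log2 units (edgeR adjusted p = 0.694, with the block 0.160). On the list of 9 cell cycle genes, Mki67, a marker of dividing cells, rose in thoracic libraries with the block (-0.31 in log2 units, with an edgeR adjusted p of 0.0221, and of 0.130 with region only). The other 8 were not called in either fit, and Ccnd1 and Pcna had values above 0, at 0.29 and 0.15. The cell cycle sum was 333, 330.4 and 303 CPM for the cervical and 351, 398 and 325 CPM for the thoracic replicates.

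Floor plate genes were higher in thoracic libraries too. The floor plate is the ventral midline of the spinal cord. Its 5 listed genes all rose in thoracic libraries with the block, where 1.39% of all genes were called in that direction. With region only edgeR called 0, and 4 passed at an unadjusted p below 0.05, all higher in thoracic libraries. Over all genes 5.19% passed so in that direction. Their sums were 413, 865 and 771 CPM for the cervical and 807, 1033 and 1138 CPM for the thoracic replicates. Shh, the secreted signal of the floor plate, differed by -0.99 in log2 units (edgeR adjusted p = 0.285, with the block 0.00649). Ntn1, an axon guidance gene and the most abundant of the 5, differed by -0.41 (edgeR adjusted p = 0.648, with the block 0.0104). Cervical replicate 1 had the lowest floor plate sum, the lowest progenitor sum and the highest motor neuron sum of the cervical libraries. Mural and mesenchymal genes, led by the collagen gene Col3a1 at a mean of 44.6 CPM, summed to 27.2, 50.1 and 176 CPM for replicates 1, 2 and 3 of the cervical group, against 108, 142 and 189.8 CPM for those of the thoracic group, and Cspg4, Col1a1 and Col3a1 of the 8 rose in thoracic libraries with the block. With region only edgeR called 0 of the 8, and 2 passed at an unadjusted p below 0.05, both higher in thoracic libraries. The shares over all genes are those given for the floor plate. Col3a1 differed by -0.09 in log2 units in replicate number 3. No progenitor, cell cycle, floor plate or mural gene on these lists was at 0 in any library. The part of these cells in the receptor result was not tested. Summed over the tested genes of each of the other lists (mean ± SD, n = 3), proneural genes had 150.0 ± 6.88 CPM in the cervical and 149.8 ± 16.7 CPM in the thoracic group, V2 interneuron genes 54.4 ± 7.63 CPM in the cervical and 75.4 ± 7.96 CPM in the thoracic group, macrophage genes 9.09 ± 5.09 CPM in the cervical and 5.48 ± 2.30 CPM in the thoracic group, erythroid genes 16.2 ± 6.10 CPM in the cervical and 9.20 ± 1.84 CPM in the thoracic group, and sensory ganglion genes 87.2 ± 9.38 CPM in the cervical and 73.8 ± 7.25 CPM in the thoracic group.

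**Figure D2:**
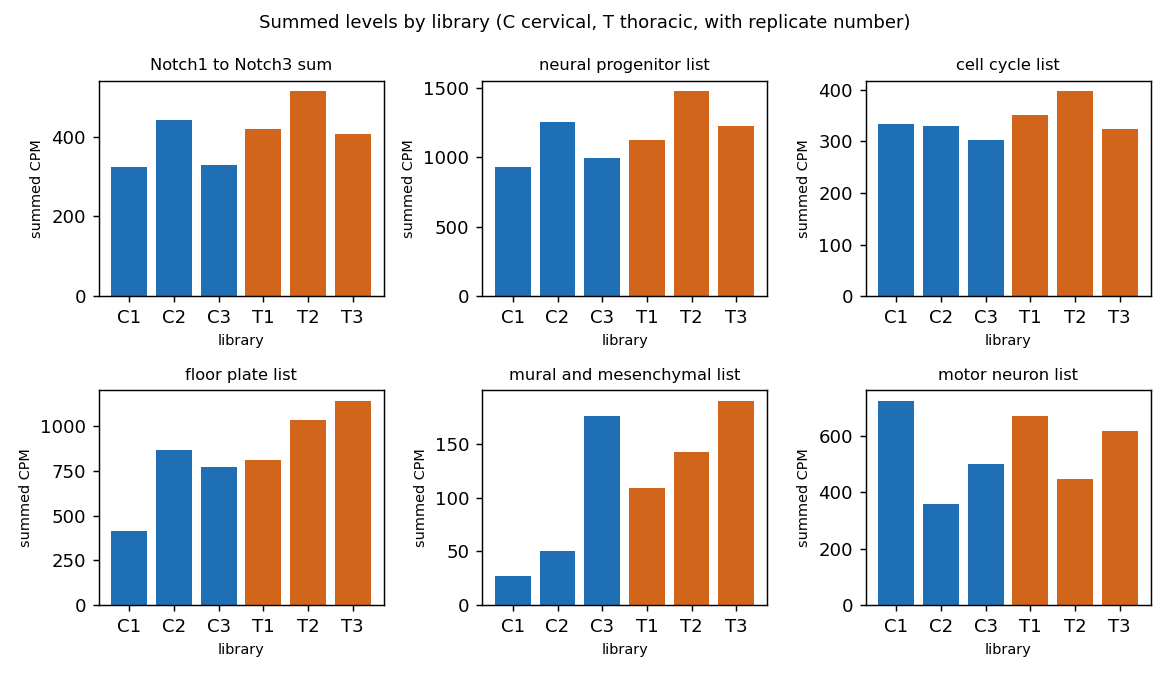
Summed TMM-scaled CPM (y axes) in each library (x axes, C for cervical, T for thoracic, with the replicate number) for the 3 Notch receptors and 5 lists of genes. The receptor sum and the progenitor sum are highest in replicate 2 of each region, at 443 and 514 CPM for the receptors, while the motor neuron sum is lowest there, at 358 and 448 CPM.

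Among the ligands, Dll1 is the main Delta ligand of cells that begin to form neurons. It lies on chromosome 17 from 15587616 to 15597134 (mm39, minus strand). Cervical replicates 1, 2 and 3 had 91.2, 80.4 and 77.0 CPM and thoracic ones 90.1, 97.9 and 78.7 CPM. The regions overlapped, and the log2 differences by number were 0.02, -0.28 and -0.03. The fitted log2 fold change was -0.10 with a 95% interval of -0.30 to 0.10 (edgeR adjusted p = 0.864).

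Dll3 is a divergent Delta protein that does not activate Notch on neighbouring cells. It lies on chromosome 7 from 27992978 to 28001663 (mm39, minus strand). Its levels were 33.9, 31.6 and 31.7 CPM for replicates 1, 2 and 3 of the cervical group, against 33.3, 37.0 and 31.5 CPM for those of the thoracic group, with the highest value in thoracic replicate 2 as for Dll1. Its log2 fold change was -0.07 with a 95% interval of -0.26 to 0.13 (edgeR adjusted p = 0.927). Without thoracic replicate 2 it was 0.0013 (edgeR adjusted p = 0.999). Dll1 made up 69.6 to 72.4% of the summed CPM of the 3 Dll genes in every library.

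Dll4, known from the tip cells of growing blood vessels and from V2 interneuron progenitors, lies on chromosome 2 from 119156265 to 119166443 (mm39, plus strand). It rested on few reads, 30, 54 and 62 in the cervical and 115, 57 and 51 in the thoracic replicates. These are 0.930, 1.58 and 1.94 CPM and 2.15, 1.75 and 1.57 CPM. The differences by number ran in both directions, from -1.21 to 0.30, and the 95% interval of the log2 fold change of -0.30 was -0.98 to 0.37 (edgeR adjusted p = 0.889). The value was -0.06 when cervical replicate 1 was left out, -0.54 when cervical replicate 3 was, and -0.17 when thoracic replicate 1 was. Endothelial genes were low as well, led by Kdr, a receptor of blood vessel growth signals, at 2.36 to 5.77 CPM. The 8 endothelial genes summed to 7.10, 11.7 and 16.6 CPM for replicates 1, 2 and 3 of the cervical group, against 17.5, 12.7 and 13.5 CPM for those of the thoracic group, with cervical replicate 1 lowest and thoracic replicate 1 highest, as for Dll4. None was at 0 in any library, and their part in the Dll4 values was not tested. Of the V2 interneuron genes, 5 of 7 were tested and Gata3, a factor of V2b neurons, rose in thoracic libraries (-0.85 in log2 units, SE 0.13, with an edgeR adjusted p of 0.0249). It was the 1 called of the 5 with region only, where 0.350% of all genes were called in that direction. All 5 lay below 0, and 3 passed at an unadjusted p below 0.05 in that test. Over all genes 5.19% passed so with the higher level in thoracic libraries.

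Jag1, a Jagged ligand of some interneuron progenitor domains and of vessels, lies on chromosome 2 from 136923376 to 136958564 (mm39, minus strand). It was the only member whose regions did not overlap, where 13.7% of all tested genes did not, 6.25% with cervical and 7.50% with thoracic libraries higher. Cervical replicates 1, 2 and 3 had 81.3, 91.8 and 81.7 CPM and thoracic ones 93.9, 102 and 95.5 CPM, so the highest cervical library lay just below the lowest thoracic one. The differences by number were -0.21, -0.16 and -0.23. Its log2 fold change was -0.20 with a 95% interval of -0.35 to -0.04 (SE 0.07, edgeR adjusted p = 0.397), and the gene was not called with the block either (0.181).

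Jag2, a Jagged ligand made by motor neurons and their progenitors, lies on chromosome 12 from 112871439 to 112893396 (mm39, minus strand). It had 93.6, 91.2 and 85.1 CPM for replicates 1, 2 and 3 of the cervical group, against 102, 89.2 and 99.6 CPM for those of the thoracic group, with overlap. Thoracic replicate 2, the highest library for the 3 receptors, Dll1, Dll3, Jag1 and Hes1, was the lowest thoracic library for Jag2. Its log2 fold change was -0.11 with a 95% interval of -0.26 to 0.05 (edgeR adjusted p = 0.785).

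**Figure D3:**
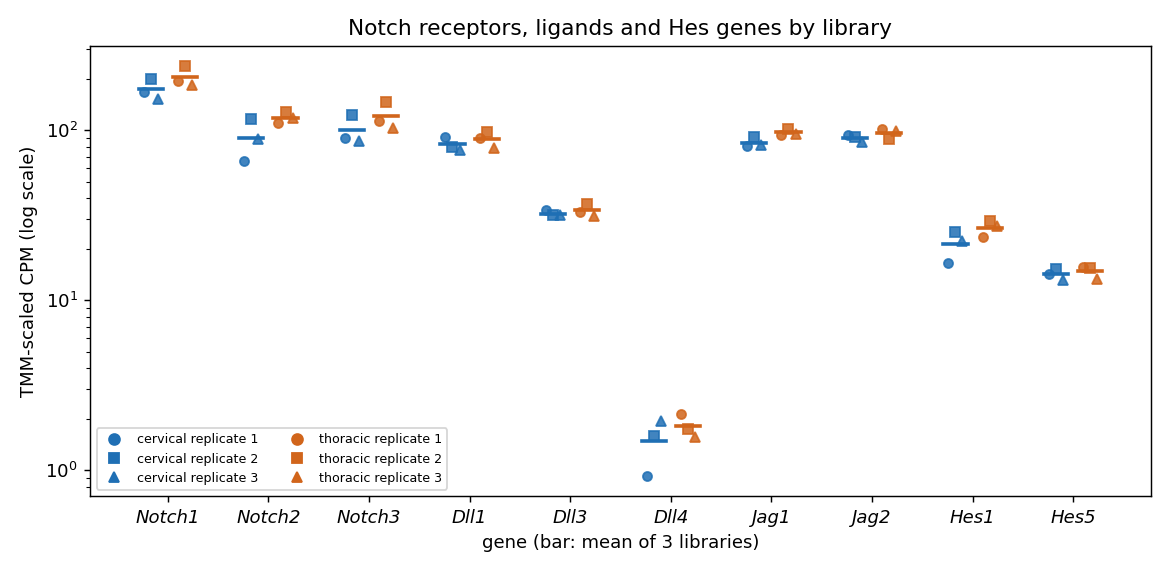
TMM-scaled CPM (y axis, log scale) of the 10 genes (x axis) in 3 cervical (blue) and 3 thoracic (orange) libraries, with bars at the mean of each region. The symbol gives the replicate number. Jag1 is the gene whose regions do not overlap, and Dll4 lies between 0.930 and 2.15 CPM, far below the others.

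Of the target genes, Hes1 encodes a repressor that oscillates in neural progenitors and holds back neuron formation. It lies on chromosome 16 from 29883202 to 29886614 (mm39, plus strand). Its levels were 16.7, 25.2 and 22.4 CPM for replicates 1, 2 and 3 of the cervical group, against 23.7, 29.3 and 27.4 CPM for those of the thoracic group, with cervical replicate 1 lowest, as for Notch2. Only cervical replicate 2 overlapped the thoracic range. The differences by number were -0.51, -0.22 and -0.29. The log2 fold change was -0.32 with a 95% interval of -0.64 to -0.0018 (SE 0.14, edgeR adjusted p = 0.584), and with the block it was -0.34 (edgeR adjusted p = 0.113). With region only the size rested on cervical replicate 1, without which it was -0.17.

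Hes5, a repressor made in neural progenitors in direct response to Notch, lies on chromosome 4 from 155045380 to 155046828 (mm39, plus strand). Its 6 libraries lay close together, with 14.3, 15.3 and 13.1 CPM for replicates 1, 2 and 3 of the cervical group, against 15.7, 15.6 and 13.4 CPM for those of the thoracic group. The log2 fold change was -0.06 with a 95% interval of -0.32 to 0.19 (edgeR adjusted p = 0.949). The ratio of Hes1 to Hes5 CPM was 1.16, 1.65 and 1.70 in the cervical replicates and 1.51, 1.89 and 2.04 in the thoracic ones, with overlap. Whether the 2 Hes genes differed in their response to region was not tested.

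The 250 bases before the Hes5 start are shown because they hold the letters through which Rbpj is known to act. Capitals mark GTGGGAA, the core of the Rbpj site, on either strand.
Hes5, chr4:154960673-154960922, plus strand: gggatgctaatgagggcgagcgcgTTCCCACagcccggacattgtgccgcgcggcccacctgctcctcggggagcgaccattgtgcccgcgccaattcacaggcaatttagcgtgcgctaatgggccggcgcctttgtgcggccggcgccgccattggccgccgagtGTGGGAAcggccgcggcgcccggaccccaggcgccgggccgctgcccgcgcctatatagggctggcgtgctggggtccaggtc
Counted from the start, the matches lie at -226 to -220 on the minus strand, where the plus strand reads TTCCCAC, and at -83 to -77 on the plus strand. At least 1 match was found in 5.42% of 32851 windows of this length and at least 2 in 0.16%. Hes5 was the only one of the 9 matched members with GTGGGAA in its window. A match is a description of the letters and no evidence of binding in these cells.

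Levels were compared between genes per length, as CPM per kilobase of the deposited exon length. On this scale Dll1 was the highest member, at 19.6 ± 1.75 in cervical and 21.1 ± 2.29 in thoracic libraries (SD, n = 3 each), and its lowest library lay above the highest library of the next gene, Jag1 (14.0 to 17.6). Then came Notch3, Jag2, Notch1, Hes1, Dll3, Hes5 and Notch2, with means over 6 libraries of 13.7, 13.4, 13.4, 11.8, 11.6, 10.7 and 9.72. From Jag1 down to Notch2, the range over the 6 libraries of both regions of each gene overlapped that of its neighbour. Compared within libraries, the order of neighbours there did not hold in all 6. Notch3 lay below Jag1 in 5 libraries and Hes5 below Dll3 in 5, while Jag2 lay below Notch3 in 2. Dll4 was lowest and apart from Notch2, at 0.241 to 0.557 in single libraries. Of all tested genes, 89.7% had a lower length-scaled level than Dll1, 76.8% than Notch2 and 15.2% than Dll4. Within the receptors, Notch1 had the highest CPM, but per length Notch1 and Notch3 overlapped, at means of 13.4 and 13.7. The exons of Notch1 sum to 14232 bases, against 8089 for Notch3 and 10782 for Notch2.

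**Figure D4:**
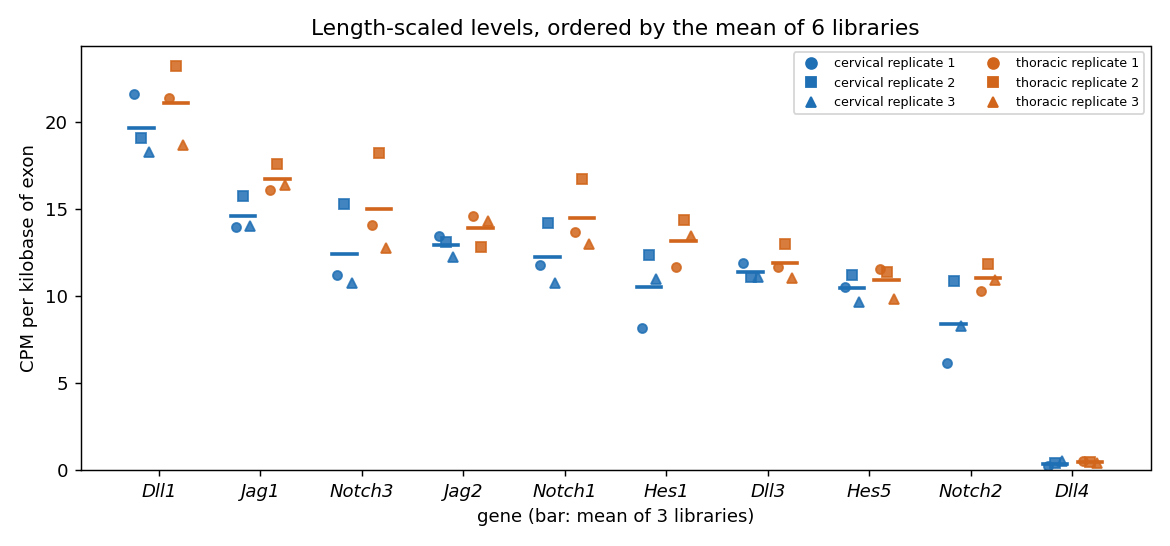
CPM per kilobase of exon (y axis) of the 10 genes (x axis), ordered by the mean of 6 libraries, in 3 cervical (blue) and 3 thoracic (orange) libraries with bars at the mean of each region. Dll1 stands above the others with 18.3 to 23.2, and Dll4 lies near 0.

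The genes whose pattern over the 6 libraries was closest to a member were found by the root mean square distance between log2 CPM values centred on each gene, among 10025 other genes with at least 10 CPM. For Notch1 these were Bmpr1b (0.0312), Gsr (0.0437) and Uhrf1 (0.0515), where the spread of Notch1 itself was 0.202. For Dll1 they were Mcm5 (0.0348), Carmil2 (0.0364) and Cdk5r2 (0.0378), beside a spread of 0.128. For Hes5 they were Leng1 (0.0222), Zfyve26 (0.0232) and Dhrs13 (0.0310), beside a spread of 0.102. Hes5 varied least of the 3.

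Of 43 other genes of the pathway, 41 were tested. In edgeR's test with region only 0 were called, where 0.542% of all genes were. At an unadjusted p below 0.05, 7 passed and 6 of them were higher in thoracic libraries. Over all genes 8.47% passed in either direction and 5.19% with the higher level in thoracic libraries. DESeq2 called 2 of them and limma-voom 0, where these methods called 408 and 107 of all 21972 genes. With the replicate block 2 were called, Neurl1b and Heyl, both higher in thoracic libraries, where 1.39% of all genes were. The median log2 fold change of the 41 was -0.03, with 15 above and 26 below 0.

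Heyl, a Hey-family repressor that Notch switches on, had the largest difference of the pathway at a low level. The cervical replicates had 1.98, 4.08 and 5.66 CPM and the thoracic ones 5.99, 9.75 and 8.52 CPM, without overlap, and cervical replicate 1 was again the lowest. The log2 fold change was -1.04 (SE 0.32, edgeR adjusted p = 0.290), -1.13 with the block (edgeR adjusted p = 0.0102) and -1.05 in DESeq2 (adjusted p = 0.0184). The blocked call was lost without cervical replicate 2 (edgeR adjusted p = 0.0836) or thoracic replicate 2 (0.116). Cspg4, a pericyte and glial precursor gene on the mural list, differed by -0.95 in log2 units (edgeR adjusted p = 0.262, with the block 0.00796), and the part of mural cells in the Heyl values was not tested. Neurl1b, a ubiquitin ligase that drives ligand uptake in the signalling cell, had 9.14, 8.42 and 6.98 CPM for replicates 1, 2 and 3 of the cervical group, against 13.7, 10.6 and 16.3 CPM for those of the thoracic group. Its regions did not overlap either, with a log2 fold change of -0.73 (SE 0.17, edgeR adjusted p = 0.126) and -0.71 with the block (edgeR adjusted p = 0.0435). DESeq2 gave an adjusted p of 0.00323. The blocked call was lost without cervical replicate 3 (edgeR adjusted p = 0.246) or thoracic replicate 3 (0.298), where the log2 fold change was -0.46.

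No other tested pathway gene was called in either fit. The nuclear complex was led by Maml3, a Mastermind co-activator, at 192 ± 6.56 and 174 ± 8.31 CPM in cervical and thoracic libraries. It was the only tested pathway gene without overlap that was higher in cervical libraries (0.14 in log2 units, edgeR adjusted p = 0.515). Of the 41 tested, 6 did not overlap with thoracic libraries higher, Heyl and Neurl1b among them. Over all tested genes 6.25% did not overlap with cervical and 7.50% with thoracic libraries higher. The 10 genes of receptor cleavage ran from -0.23 to 0.43, with the protease gene Adam10 most abundant at 177 ± 12.2 and 173 ± 5.54 CPM. The 5 genes of receptor glycosylation were led by Rfng, a Fringe sugar transferase, at 66.4 ± 1.57 and 63.4 ± 1.55 CPM. Mib1, the ubiquitin ligase on which ligand signalling depends, stood at 362 ± 17.1 and 368 ± 12.1 CPM, with a log2 fold change of -0.03 (SE 0.06, edgeR adjusted p = 0.960). Inhibitors and turnover genes stayed between -0.10 and 0.10 and were led by Dtx4, a Deltex ubiquitin ligase, at 209 ± 15.3 and 215 ± 12.6 CPM. Dner, a ligand-like neuronal membrane protein, stood at 264 ± 32.4 and 251 ± 50.9 CPM, and Hey1, the most abundant of the other Hes and Hey genes, at 44.7 ± 9.82 and 50.8 ± 3.98 CPM. All of these means are given with the SD over 3 libraries.

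**Figure D5:**
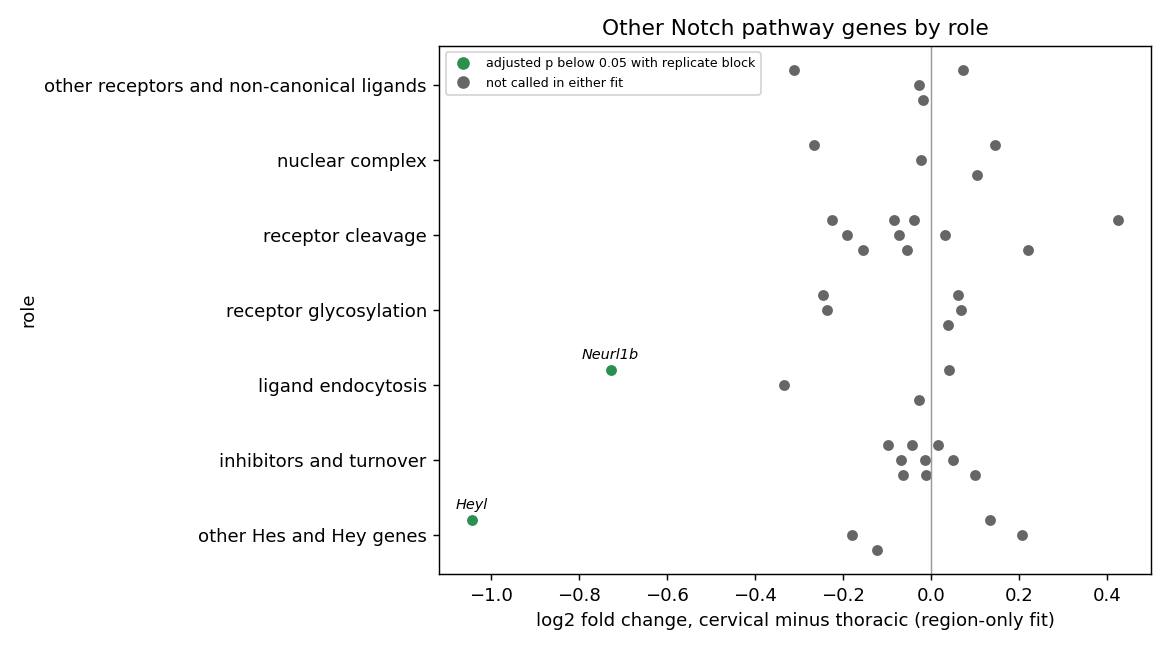
Log2 fold change, cervical minus thoracic, from the region-only fit (x axis) for 41 other pathway genes by role (y axis, points spread vertically for legibility). Green points were called with the replicate block: Neurl1b at -0.73 and Heyl at -1.04. The others lie between -0.33 and 0.43.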

How the data were processed

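Ribosomal RNA-depleted total RNA (10 to 20 ng, 15 PCR cycles, stranded kit, per the labels' protocols) of 6 libraries was used. The authors deposited whole-number read counts for each gene, made with STAR 2.7.5b and featureCounts 2.0.1 on mm39 after FastQC 0.11.9, per the submitters' processing notes. No source used here gives the annotation release, the strand setting or the handling of multiply mapped reads. Reads of antisense partners cannot be told apart: Notch1, Notch3, Dll4 and Hes5 share exonic bases with such genes, whose mean counts were at most 43.0, and Dll4 (mean count 61.5) shares 214 bases with Gm14207 (10.7). Notch2 shares 541 bases with Gm42820 on its own strand. The gene length in bases, also deposited, is the exonic length. The table lists each library under its own name, which the labels' descriptions give.

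Counts were filtered with edgeR 4.0.16 (minimum count 10) in R 4.3.3, TMM-normalised (factors 0.989 to 1.01) and compared by the quasi-likelihood test over 21972 genes, with region as the only term and, as an alternative, with the replicate number as a block. Log2 fold changes use a prior count of 0.125, and the SE was taken as the size of that value over the root of F. Intervals use the t distribution of that fit. Other alternatives were median-of-ratios scaling, library totals only, no filter, a mean CPM of at least 1, DESeq2 1.42.0, limma-voom (limma 3.58.1) and leaving out each library. The blocked fits without a library were added after seeing the data. Chi-square per degree of freedom between libraries of a region was 10.1 to 16.2, so no pair looked like 1 library deposited again. This does not show that the libraries come from separate animals. Libraries of the same number deviated together from their region mean, with correlations of 0.163, 0.160 and 0.195 over 21972 genes, all above the 0.1 required, so the numbers were taken to pair the libraries. Libraries of unlike number had correlations of -0.179 to 0.0083. With 3 libraries per region, each centred on its region mean, these values cannot show what a shared number stands for. The calls with the block rest on this pairing.

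The 10 members and the gene lists were chosen with earlier results of these data known. Named genes are the members, other pathway genes called in either fit, the most abundant of each role, and a few genes of the lists of other cells or states.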

Additional observations from a re-analysis of the deposited data

How the results depend on the processing

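With region as the only term 119 genes differed between regions. The count was 747 of 39190 tested genes without a low-count filter, 408 with DESeq2 and 432 with the replicate block. It was 9 to 159 when a library was left out. Leaving out the cervical library numbered 2 or 3 gave 41 and 9, and leaving out the thoracic library numbered 2 or 3 gave 37 and 45. Members called were 0 with region only, 3 with the replicate block and 3 without the filter, the 3 receptors in each case, and 0 in every fit without the block that left out a library. Other pathway genes called were 0 with region only, 2 with the replicate block, 2 with DESeq2 and 3 without the filter. The count was 0 in every fit without the block that left out a library. In the 6 blocked fits that left out a library, which called 229 to 798 genes over all, Neurl1b and Heyl were each called in 4. The cause of these shifts was not tested. Of 130 values (10 members under 13 alternatives each), 123 kept their direction and side of the threshold, 6 passed it, and 1 turned direction: Dll3, which ran from -0.12 to 0.0013 when a library was left out, the latter without thoracic replicate 2. The replicate block changed no other member's call. DESeq2 gave no adjusted p for 2558 of 21972 genes. Dll4 had 30 to 115 reads per library and the other members at least 420, and depth and spread between libraries were not separated.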
